A study of Mus musculus with 8 samples.

Results

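The receptors described here are the BMP, activin and TGF-β receptors of mouse dental papilla cells, taken as 10 named genes out of 22609 gene symbols in the gene tables. They are the type I receptors Bmpr1a, Bmpr1b, Acvr1, Acvrl1 and Tgfbr1, the type II receptors Bmpr2, Acvr2a, Acvr2b and Tgfbr2, and the type III receptor Tgfbr3. The rule that picks them uses only their names, but they were chosen with earlier results of these data known. RNA was sequenced from iBmp2 fx/fx cells, labelled Bmp2 floxed/floxed, and from iBmp2 ko/ko cells, labelled Bmp2 KO, with 1 library for each genotype at 6, 24, 48 and 72 h of culture. Both are immortalised lines of dental papilla cells, the mesenchyme from which odontoblasts and dental pulp arise. Each genotype is 1 line, so a difference between the genotypes cannot be told apart from a difference between the lines. The culture times serve as replicates of a genotype. In fits without a term for culture time, the p-values measure the spread between these libraries, which includes any change with culture time. In fits with such a term, they measure how far the genotype difference varies between times. Neither measures the spread between repeat cultures of 1 time. The culture times follow the library labels, and the design text deposited with the series gives 8 h as the earliest time.

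Ligands of the TGF-β superfamily bind pairs of type I and type II receptors, which are serine and threonine kinases of the cell membrane. The type II receptor phosphorylates the type I receptor, which then phosphorylates Smad proteins. Smad1, Smad5 and Smad9 carry the BMP signal and Smad2 and Smad3 the signal of activin and TGF-β, and each group enters the nucleus with Smad4. BMP2 binds mainly Bmpr1a and Bmpr1b, with Bmpr2, Acvr2a or Acvr2b as type II partners. In the developing tooth, BMP signals pass back and forth between the dental epithelium and the papilla mesenchyme.

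Between 25890110 and 32415665 reads per library fell on genes, with a median of 29985177, and 3 reads, the smallest count treated as detectable, corresponded to 0.0925 to 0.116 CPM, the read count normalised to 1e6 reads per library. The targeted gene, Bmp2, could not check the labels, as it had 1 read at 24 h in iBmp2 fx/fx and 0 in the remaining 7 libraries. No pair of libraries held identical counts. Of the 28 pairs of libraries, however, the closest was the library labelled iBmp2 ko/ko at 24 h with that of iBmp2 fx/fx at 6 h. Over 10939 genes with at least 100 counts on average, the median difference between these libraries was 0.0622 on the log2 scale, against 0.153 to 0.559 in the other 27 pairs. Their median chi-square value per gene was 1.25, where counting alone gives 0.455, against 7.20 to 92.3 in the other pairs. The receptors behaved in the same way, and their median difference between these libraries was 0.0793, against 0.216 to 1.16. All 10 receptors in the library labelled iBmp2 ko/ko at 24 h were nearer to the iBmp2 fx/fx mean than to the iBmp2 ko/ko mean of the other times. The nearest library was iBmp2 fx/fx at 6 h for Bmpr1b, Bmpr2, Acvrl1, Tgfbr1 and Tgfbr3, and iBmp2 fx/fx at 24 h for the other 5 receptors. Whether the cells, the RNA or the label set this library apart cannot be told apart from these data. The comparisons below therefore use the 6 libraries of 6, 48 and 72 h, the culture times that the methods of the study list, and give the 24 h libraries beside them.

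**Figure D1:**
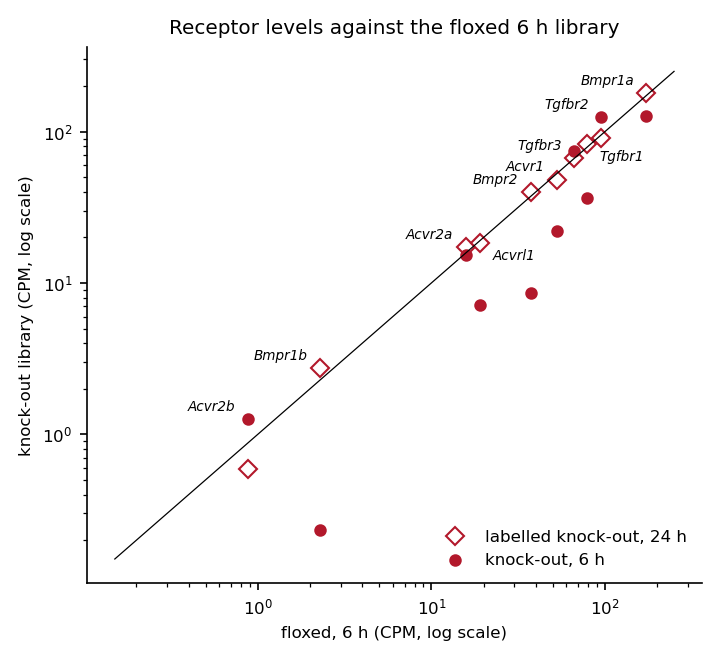
Level of each receptor in the library labelled iBmp2 ko/ko at 24 h (open diamonds) and in iBmp2 ko/ko at 6 h (filled circles), in CPM on a log scale, against its level in iBmp2 fx/fx at 6 h, in CPM on a log scale. The line marks equal levels, and Bmpr1b, Bmpr2, Acvr1, Acvrl1 and Tgfbr1 leave it in the iBmp2 ko/ko library of 6 h but lie near it in the library labelled 24 h.

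Dental mesenchyme markers were present in both lines. Of the 14 genes in this list, 12 passed the count filter, and Lhx8 and Barx1 had at most 1 read in any library. Their summed level was 7378 to 8738 CPM over the 4 iBmp2 fx/fx libraries and 9635 to 13208 CPM over iBmp2 ko/ko at 6, 48 and 72 h. Col1a1, Col1a2 and Vim carried this sum, while 8 of the 12 markers tested were lower in iBmp2 ko/ko. The median log2 fold change of the 12 was −0.33, against 0.03 for all genes. By adjusted p in edgeR 0 of the 12 were called without culture time as a block, against 2.22% of all genes. With the block, 22.7% of all genes were called, 11.4% lower and 11.3% higher. In that fit the transcription factors Dlx2, Dlx1, Msx1 and Runx2 were called lower, at −2.91, −1.05, −0.80 and −0.58 on the log2 scale. Vim and Col1a2 were called higher, at 0.68 and 0.58. The summed level of smooth muscle and pericyte markers was 790 to 1206 and 1042 to 1961 CPM in the same libraries of the respective lines, and Acta2 and Pdgfrb carried this sum. Of the 3 tested genes of that list, Cspg4 was lower, at −2.37 (adjusted p = 0.0441 in edgeR, 0.0084 with the block), and Acta2 and Pdgfrb were called higher with the block alone, at 0.76 and 0.49. The summed level of blood and macrophage markers was 4.31 to 14.2 and 2.73 to 3.37 CPM, and that of glia and neuron markers, mostly Tubb3, was 20.6 to 44.4 and 44.2 to 59.5 CPM. Tubb3 was called higher with the block, at 0.84 (adjusted p = 0.0251). Csf1r and Cd68, the 2 tested blood and macrophage markers, and Krt14, the 1 tested epithelial marker, were called lower with the block, at −1.64, −1.25 and −1.45 (adjusted p = 0.0118, 0.0272 and 0.0414). The marker genes given here with a fold change were named after their values had been seen, and the part of these differences in the receptor values was not tested. Of the odontoblast markers, Dspp had at most 1 read in a library and Dmp1 at most 0.248 CPM, Phex was at 0.472 to 1.32 CPM, and Nes, which is not limited to odontoblasts, was at 114 to 181 CPM in iBmp2 fx/fx and at 85.3, 91.5 and 115 CPM in iBmp2 ko/ko at 6, 48 and 72 h. Nes was called lower with the block as well, at −0.51 (adjusted p = 0.0125).

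Among the receptor genes, 5 type I and type II receptors were lower in the iBmp2 ko/ko cells at each of 6, 48 and 72 h. These were Bmpr1b, Acvr1, Acvrl1, Tgfbr1 and Bmpr2, and 29.2% of all genes were lower at all these times. Acvr2b, Tgfbr2 and Tgfbr3 were higher at all these times, as were 29.4% of all genes, and Bmpr1a and Acvr2a differed in direction between times. The genotype was tested with edgeR's quasi-likelihood test on the counts with Benjamini-Hochberg adjustment over all 13121 genes tested. All 10 receptors passed the filter on low counts. Without a term for culture time, 0 of the 10 had an adjusted p of 0.05 or less, where 2.22% of all genes did. At an unadjusted p under 0.05, 4 receptors passed (Bmpr1b, Acvr1, Acvrl1 and Tgfbr1, all lower), against 14.0% of all genes in either direction and 7.33% lower. DESeq2 gave the same 4 an adjusted p of 0.05 or less, against 6.65% of all genes and 3.92% lower. With an added log2 fold change above 1, 3 of these passed in edgeR (Bmpr1b, Acvr1 and Acvrl1), against 7.35% of all genes and 4.04% lower. Since the libraries of one culture time shared their deviations from the genotype means, the fit was repeated with culture time as a block. In that fit 5 of the 10 receptors, Bmpr1b, Acvr1, Acvrl1, Tgfbr1 and Bmpr2, fell, against 22.7% of all genes called in either direction and 11.4% called lower. By adjusted p with the block 0 of 10 were called higher, against 11.3% of all genes, and at an unadjusted p under 0.05 Tgfbr2 and Tgfbr3 were higher, against 19.1% of all genes. When the iBmp2 fx/fx library of 24 h was added, the block called the same 5 receptors, against 23.8% of all genes, and the fit without it called Acvrl1 alone, against 3.66%. When the library labelled iBmp2 ko/ko at 24 h was added as well, edgeR called 0 of 10 receptors and 0.00% of all genes, or 0 of 10 and 0.337% with the block. At an unadjusted p under 0.05 it then gave 3 receptors without the block, against 10.2% of all genes, and 5 with it, against 24.8%. The median log2 fold change of the 10 receptors was −0.58, and that of all genes was 0.03.

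**Figure D2:**
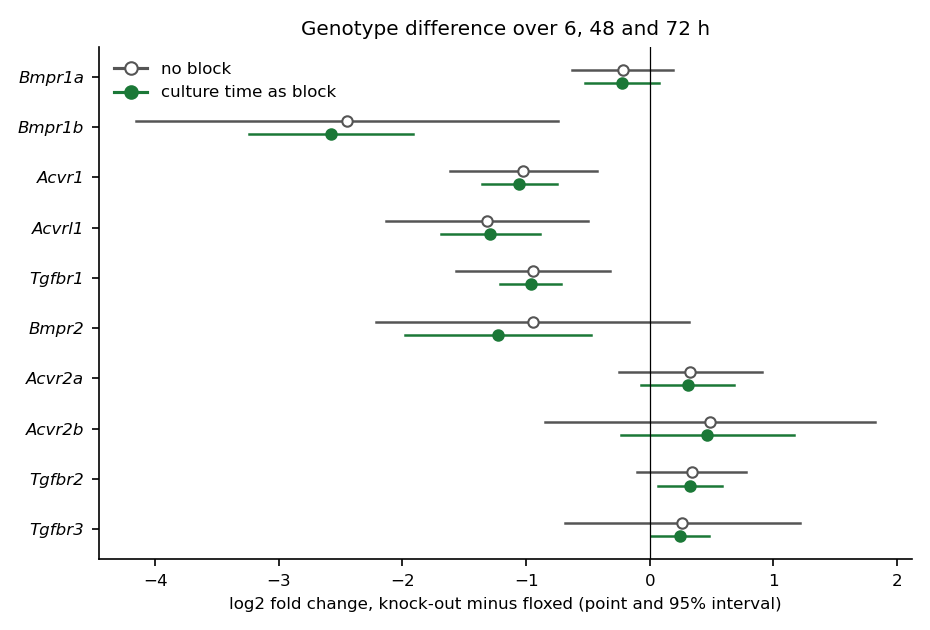
Log2 fold change of each receptor, iBmp2 ko/ko minus iBmp2 fx/fx, over the libraries of 6, 48 and 72 h, without a block (open points) and with culture time as a block (filled points). The bars are 95% intervals of edgeR's quasi-likelihood fit. With culture time as the block the intervals of Bmpr1b, Acvr1, Acvrl1, Tgfbr1 and Bmpr2 lie below 0, and the intervals narrow for all 10 receptors.

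The upstream sequences of 4 receptors that were lower with the block are shown because these genes were called lower in the same fit. RefSeq start sites on GRCm38.p6 were found for 8 of the 10 receptors, and for Acvrl1 and Tgfbr3 no entry was found. Each line gives the 250 bases before a start site, 5′ to 3′ on the strand of the gene. For Bmpr1b, the first of 3 listed start sites lies on the minus strand after chr3:141982265-141982514, and for Acvr1 the window is chr2:58566829-58567078, minus strand. For Tgfbr1, the first of 2 listed sites follows chr4:47352972-47353221, plus strand, and the Bmpr2 window is chr1:59764029-59764278, plus strand. Capitals mark the letters GGGCGG (the box of Sp1 and Krüppel-like factors), GGCGCC (a box bound by BMP Smads), CAGAC (the general Smad box), CCAAT and TATAAA, searched on both strands with overlapping matches counted.
Bmpr1b: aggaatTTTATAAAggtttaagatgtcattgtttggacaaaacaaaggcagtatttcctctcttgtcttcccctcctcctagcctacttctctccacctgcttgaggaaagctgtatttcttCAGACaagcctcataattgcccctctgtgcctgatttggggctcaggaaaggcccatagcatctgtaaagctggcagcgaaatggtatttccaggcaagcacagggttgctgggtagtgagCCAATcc
Acvr1: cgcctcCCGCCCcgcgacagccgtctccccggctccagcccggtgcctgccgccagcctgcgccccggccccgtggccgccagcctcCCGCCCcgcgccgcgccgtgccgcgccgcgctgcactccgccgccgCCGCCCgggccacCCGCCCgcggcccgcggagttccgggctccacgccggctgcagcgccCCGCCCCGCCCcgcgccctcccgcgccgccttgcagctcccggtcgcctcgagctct
Tgfbr1: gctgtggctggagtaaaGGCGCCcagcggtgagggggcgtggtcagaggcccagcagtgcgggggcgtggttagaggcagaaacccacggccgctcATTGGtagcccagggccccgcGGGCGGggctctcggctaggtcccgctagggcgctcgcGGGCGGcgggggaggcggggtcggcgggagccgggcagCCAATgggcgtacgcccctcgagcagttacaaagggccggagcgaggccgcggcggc
Bmpr2: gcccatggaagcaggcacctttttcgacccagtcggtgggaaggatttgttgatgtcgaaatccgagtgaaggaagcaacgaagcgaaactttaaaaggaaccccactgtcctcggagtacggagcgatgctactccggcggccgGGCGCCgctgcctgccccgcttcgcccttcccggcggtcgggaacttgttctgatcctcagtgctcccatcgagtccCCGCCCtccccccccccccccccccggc

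The printed window of Bmpr1b held 46.8% G and C and 1 CpG, against 85.6% and 46 CpG for Acvr1, 74.8% and 29 for Tgfbr1, and 64.0% and 22 for Bmpr2. The median of 32851 windows of the same length was 52.4% with 6 CpG. The other start sites of Bmpr1b had 52.8 and 56.4% G and C with 5 CpG each, and the other start site of Tgfbr1 was close to these, with 52.8% and 3 CpG. GGGCGG was found 6 times upstream of Acvr1, 2 times upstream of the first start site of Tgfbr1, 1 time upstream of Bmpr2 and 0 times in any window of Bmpr1b or at the other start site of Tgfbr1, and 32.7% of all windows held it. The Bmpr1b window held TATAAA, which 12.4% of all windows did, and 1 CAGAC, which 42.2% did. GGCGCC, present in 9.59% of all windows, was found 1 time each in the Tgfbr1 and Bmpr2 windows. CCAAT was found 1 time in the Bmpr1b window and 2 times in that of Tgfbr1, and 33.8% of all windows held it. The receptors that were not called lower had windows richer in G and C than the median of all windows, with 78.8% for Bmpr1a, 82.0% for Acvr2a, 72.8% for Acvr2b and 58.4% for Tgfbr2. Their windows held boxes as well. GGGCGG was found 4 times for Bmpr1a, 2 times for Acvr2a and 3 times for Acvr2b. GGCGCC was found 1 time for Bmpr1a, and CAGAC 1 time each for Acvr2a, Acvr2b and Tgfbr2. CCAAT was found 1 time for Bmpr1a and 2 times for Tgfbr2.

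Bmpr1b (ENSMUSG00000052430.8, mm9 chr3:141500100-141832389, minus strand) encodes a type I BMP receptor of skeletal and dental progenitors. It had 73, 109, 128 and 214 reads in the iBmp2 fx/fx cells at 6, 24, 48 and 72 h, or 2.28, 3.89, 3.97 and 7.21 CPM. The iBmp2 ko/ko cells had 7, 19 and 40 reads at 6, 48 and 72 h, or 0.232, 0.615 and 1.60 CPM, and the library labelled 24 h had 74 reads or 2.74 CPM. All libraries of 6, 48 and 72 h were lower in iBmp2 ko/ko than the lowest iBmp2 fx/fx library, and over these 3 times the level was highest at 72 h and lowest at 6 h in both lines. The means were 4.48 ± 2.51 CPM in iBmp2 fx/fx and 0.817 ± 0.708 CPM in iBmp2 ko/ko (SD, n = 3 each). The log2 fold change was −2.45 ± 0.73 (SE) with an adjusted p of 0.186 in edgeR, a 5.47-fold lower level, and −2.58 ± 0.29 with an adjusted p of 0.0012 with the block. Single libraries moved the value without the block to −1.94 (iBmp2 fx/fx at 72 h left out) and to −3.38 (iBmp2 ko/ko at 72 h left out), and with the block it stayed between −2.93 and −2.37. Over all 8 libraries it was −1.71, or −2.04 with the block. The 7 reads at 6 h carry an exact Poisson 95% interval of 2.81 to 14.4 reads, which covers counting error only. On chromosome 3 as a whole, the median log2 fold change of 633 genes was −0.39, and its part in the value of Bmpr1b was not tested.

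Acvr1 (ENSMUSG00000026836.9, mm9 chr2:58241055-58419568, minus strand), also called Alk2, is a type I receptor that passes on BMP signals, mainly those of BMP6 and BMP7. Its level was 53.1, 48.2, 61.2 and 71.4 CPM in iBmp2 fx/fx at 6, 24, 48 and 72 h. It was 22.1, 28.0 and 40.4 CPM in iBmp2 ko/ko at 6, 48 and 72 h and 48.2 CPM in the library labelled 24 h. The genotypes did not overlap over 6, 48 and 72 h, and the library labelled 24 h had the same level as iBmp2 fx/fx at that time. With means of 61.9 ± 9.16 and 30.2 ± 9.32 CPM (SD, n = 3 each), Acvr1 had a log2 difference of −1.02 ± 0.25 (SE, adjusted p = 0.116 in edgeR) and, with the block, of −1.05 ± 0.13 (adjusted p = 0.0018). Without the iBmp2 ko/ko library of 72 h, the fit without a block also called it, at −1.30 with an adjusted p of 0.0351. Leaving out any of the other 5 libraries gave −1.13 to −0.85 with adjusted p of 0.207 to 0.374 in edgeR. Over all 8 libraries it was −0.73, or −0.78 with the block (adjusted p = 0.483 and 0.116).

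Acvrl1 (ENSMUSG00000000530.9, mm9 chr15:100958953-100975767, plus strand), also called Alk1, is best known as the BMP9 and BMP10 receptor of endothelial cells. It measured 19.1, 14.7, 13.6 and 9.23 CPM in iBmp2 fx/fx at 6, 24, 48 and 72 h. The iBmp2 ko/ko cells had 7.12, 4.86 and 4.65 CPM at 6, 48 and 72 h, and 18.4 CPM in the library labelled 24 h. Every iBmp2 ko/ko library of 6, 48 and 72 h lay below every iBmp2 fx/fx library, and the level was lowest at 72 h in both lines. The means were 14.0 ± 4.92 and 5.54 ± 1.37 CPM (SD, n = 3 each), a 2.49-fold lower level, or −1.32 ± 0.35 on the log2 scale (adjusted p = 0.137 in edgeR). With the block it was −1.29 ± 0.17 (adjusted p = 0.0025). Over all 8 libraries it was −0.67, or −0.88 with the block. Of the endothelial markers Pecam1, Cdh5, Kdr, Tek, Tie1 and Emcn, 2 passed the count filter and Emcn was at 0 in every library. Their summed level was 1.99 to 3.31 CPM in iBmp2 fx/fx and 1.56 to 3.63 CPM in iBmp2 ko/ko, and in each library it was below the level of Acvrl1. The 2 tested markers differed in direction, with log2 fold changes of −1.32 for Kdr and 1.62 for Tek (adjusted p = 0.191 and 0.246 in edgeR, 0.0166 and 0.0204 with the block). Kdr was thus called lower with the block, as Acvrl1 was, and its part in the value of Acvrl1 was not tested. In these bulk libraries, fewer cells with a transcript and less of it per cell cannot be told apart. Exons of Acvrl1 share 127 bases, 2.98% of their length, with Gm16031 on the opposite strand. Gm16031 is not among the symbols of the gene tables, and the strand setting of the counting is not given in the sources used here.

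Tgfbr1 (ENSMUSG00000007613.9, mm9 chr4:47366094-47427803, plus strand), also called Alk5, is the type I receptor of TGF-β. Its level was 78.8, 117, 122 and 101 CPM in iBmp2 fx/fx at 6, 24, 48 and 72 h. It was 36.5, 65.7 and 52.7 CPM in iBmp2 ko/ko at 6, 48 and 72 h and 82.2 CPM in the library labelled 24 h. The lines did not overlap over 6, 48 and 72 h, and both were highest at 48 h among these times. From 101 ± 21.7 CPM in iBmp2 fx/fx the level went to 51.6 ± 14.6 CPM in iBmp2 ko/ko (SD, n = 3 each), a log2 difference of −0.95 ± 0.26 (adjusted p = 0.160 in edgeR) and of −0.96 ± 0.11 with the block (adjusted p = 0.0012). The ratio at single times was even, at −1.11, −0.90 and −0.93 on the log2 scale at 6, 48 and 72 h. Together with Bmpr1b, Acvr1 and Acvrl1 this made 4 of 10 receptors without overlap between the genotypes, against 20.0% of all genes in either direction and 11.0% lower.

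Bmpr1a (ENSMUSG00000021796.8, mm9 chr14:35223920-35316527, minus strand), also called Alk3, is a main type I receptor of BMP2 and BMP4. It had 173, 181, 160 and 183 CPM in iBmp2 fx/fx at 6, 24, 48 and 72 h. The iBmp2 ko/ko cells had 127, 168 and 144 CPM at 6, 48 and 72 h and 180 CPM in the library labelled 24 h. The lines overlapped, since iBmp2 ko/ko lay above iBmp2 fx/fx at 48 h. The log2 fold change was −0.22 ± 0.17 with a 95% interval of −0.63 to 0.19 (adjusted p = 0.665 in edgeR), and −0.23 with the block (−0.52 to 0.07, adjusted p = 0.238). Bmpr1a and Bmpr1b are the pair of type I receptors that BMP2 binds, and their intervals with the block did not overlap, with Bmpr1b between −3.24 and −1.91. Exons of Bmpr1a share 290 bases, 4.57% of their length, with Gm17110 on the opposite strand, which is not in the gene tables.

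Bmpr2 (ENSMUSG00000067336.4, mm9 chr1:59821481-59927703, plus strand) is the type II receptor specific to ligands of the BMP group. Its level was 37.2, 66.8, 52.6 and 54.8 CPM in iBmp2 fx/fx at 6, 24, 48 and 72 h. It was 8.61, 45.4 and 19.9 CPM in iBmp2 ko/ko at 6, 48 and 72 h and 39.8 CPM in the library labelled 24 h. The iBmp2 ko/ko library of 48 h overlapped the iBmp2 fx/fx range, while those of 6 and 72 h lay below it. The ratio at single times was accordingly uneven, with log2 values of −2.11, −0.21 and −1.46 at 6, 48 and 72 h. The means were 48.2 ± 9.55 and 24.6 ± 18.8 CPM (SD, n = 3 each), and the log2 difference was −0.95 ± 0.54 (adjusted p = 0.506 in edgeR, 95% interval −2.22 to 0.32). With the block it was −1.23 ± 0.32 (adjusted p = 0.0316). The call with the block was lost without the iBmp2 fx/fx or the iBmp2 ko/ko library of 6 h, at −0.81 and −0.80, and without iBmp2 ko/ko at 72 h, at −1.15. Over leaving out each library the value ran from −1.77 to −0.80 with the block and from −1.74 (without iBmp2 ko/ko at 48 h) to −0.54 (without iBmp2 ko/ko at 6 h) without it.

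Tgfbr2 (ENSMUSG00000032440.5, mm9 chr9:115993415-116084383, minus strand) is the type II receptor of TGF-β and the partner of Tgfbr1. It measured 94.9, 93.9, 107 and 94.4 CPM in iBmp2 fx/fx at 6, 24, 48 and 72 h. The iBmp2 ko/ko cells had 124, 145 and 102 CPM at 6, 48 and 72 h, and 91.0 CPM in the library labelled 24 h. Tgfbr2 was thus higher in iBmp2 ko/ko at each of these 3 times, and the ranges overlapped. The log2 fold change was 0.34 ± 0.19 (adjusted p = 0.494 in edgeR, 95% interval −0.10 to 0.78) and 0.33 ± 0.11 with the block (0.07 to 0.58, adjusted p = 0.0712), so it did not pass the adjusted limit in either fit.

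Acvr2a (ENSMUSG00000052155.5, mm9 chr2:48669629-48758789, plus strand) and Acvr2b (ENSMUSG00000061393.6, mm9 chr9:119311562-119342619, plus strand) are the activin type II receptors, which also serve BMP ligands. Acvr2a was at 15.8, 18.6, 15.7 and 20.1 CPM in iBmp2 fx/fx at 6, 24, 48 and 72 h. Its level was 15.4, 23.9 and 24.7 CPM in iBmp2 ko/ko at 6, 48 and 72 h and 17.3 CPM in the library labelled 24 h. At 6 h the lines were alike in Acvr2a, and at 48 and 72 h the iBmp2 ko/ko cells had more. The log2 fold change of Acvr2a was 0.33 ± 0.25 (adjusted p = 0.642 in edgeR, 95% interval −0.25 to 0.90). With the block it was 0.31 (−0.07 to 0.68, adjusted p = 0.206). The exons of Acvr2a share 446 bases, 7.84% of their length, with Orc4 on the opposite strand, which is in the gene tables. Acvr2b was read little, with 28, 17, 26 and 10 reads in the iBmp2 fx/fx cells at 6, 24, 48 and 72 h, or 0.873, 0.607, 0.806 and 0.337 CPM. The iBmp2 ko/ko cells had 38, 35 and 10 reads of it at 6, 48 and 72 h, or 1.26, 1.13 and 0.401 CPM, and 16 reads or 0.593 CPM in the library labelled 24 h. The ranges overlapped, and at 72 h both lines had the same number of reads. The log2 fold change of Acvr2b was 0.49 ± 0.57 (adjusted p = 0.785 in edgeR, 95% interval −0.84 to 1.82). With the block it was 0.47 ± 0.30 (−0.23 to 1.17, adjusted p = 0.294).

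Tgfbr3 (ENSMUSG00000029287.8, mm9 chr5:107535589-107718648, minus strand) encodes betaglycan, the type III receptor, which presents TGF-β2 to the signalling receptors and serves inhibin as a co-receptor. Its level was 66.4, 186, 149 and 135 CPM in iBmp2 fx/fx at 6, 24, 48 and 72 h. It was 75.0, 185 and 155 CPM in iBmp2 ko/ko at 6, 48 and 72 h and 66.9 CPM in the library labelled 24 h. Culture time separated these libraries more than genotype did, since the 6 h libraries of both lines were the lowest of the 6. The log2 fold change for genotype was 0.26 ± 0.41 (adjusted p = 0.847 in edgeR, 95% interval −0.69 to 1.21), and 0.25 ± 0.10 with the block (0.01 to 0.48, adjusted p = 0.115). It was −0.13 over all 8 libraries, where the library labelled 24 h takes part.

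**Figure D3:**
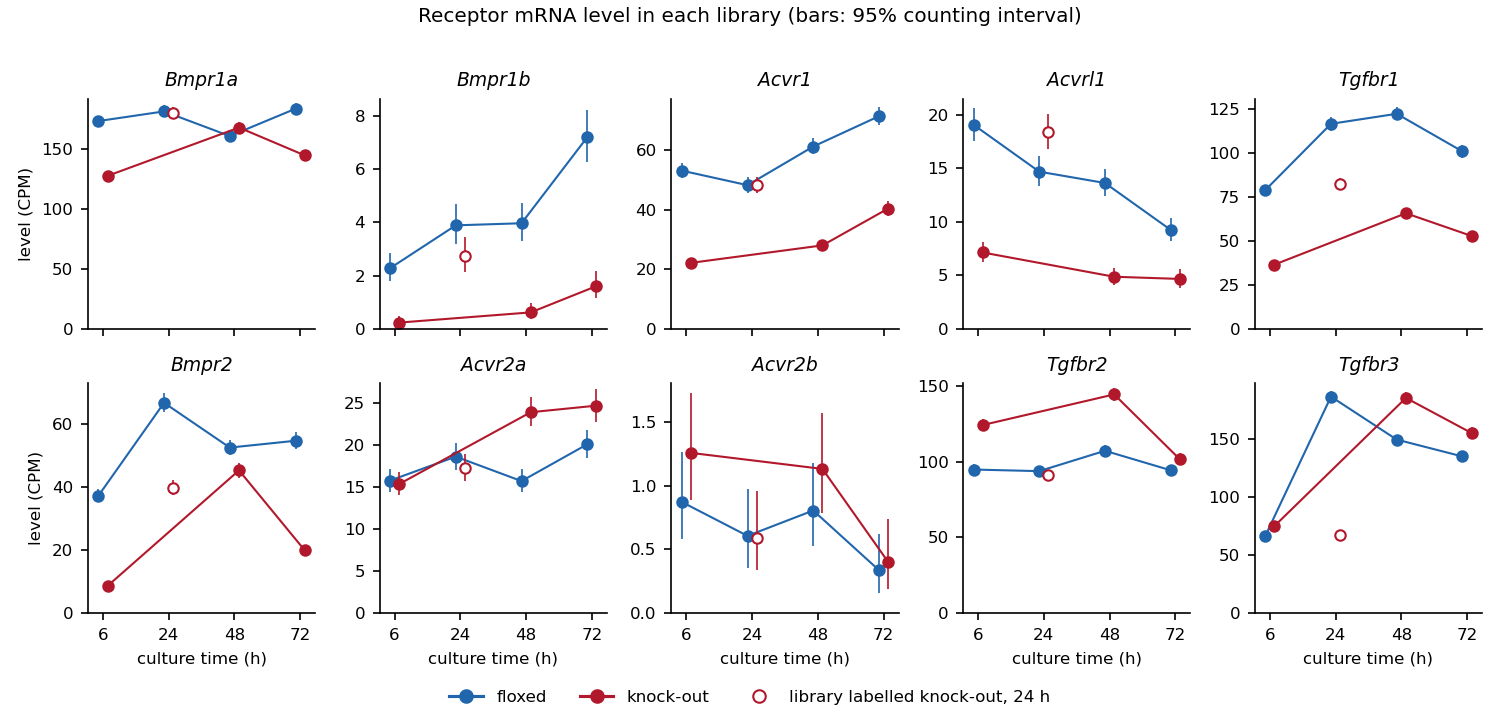
Level of each receptor (CPM) against culture time (h), with 1 point per library, iBmp2 fx/fx in blue and iBmp2 ko/ko in red, and 95% counting intervals as bars. The open point is the library labelled iBmp2 ko/ko at 24 h, which the red line leaves out. Bmpr1b, Acvr1, Acvrl1 and Tgfbr1 are lower in iBmp2 ko/ko at 6, 48 and 72 h without overlap, and over these 3 times Tgfbr3 is lowest at 6 h in both lines.

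The 24 h libraries were compared apart, by a term for the genotype difference at 24 h minus that at the other times, in the blocked fit over all 8 libraries. It was added after the values had been seen. The term passed the adjusted limit for Acvrl1 and Tgfbr3, 2 of 10 receptors, against 5.29% of all genes. With 1 library per genotype at 24 h, these libraries were assumed to vary like those of the other times, from which the spread was estimated. The term restates for single receptors that the library labelled iBmp2 ko/ko at 24 h resembled iBmp2 fx/fx, and its p-values are no independent evidence of a difference. For Acvrl1 it was 1.64 ± 0.34 on the log2 scale (adjusted p = 0.0321 in edgeR), since the log2 ratio of iBmp2 ko/ko to iBmp2 fx/fx was 0.33 at 24 h and −1.42, −1.49 and −0.99 at 6, 48 and 72 h. For Tgfbr3 it was −1.70 ± 0.22 (adjusted p = 0.0056), with a log2 ratio of −1.48 at 24 h and of 0.18, 0.31 and 0.20 at the other times. Bmpr1b and Acvr1 also differed least at 24 h, with log2 ratios of −0.50 and −0.00, but their terms did not pass (2.08 ± 0.53 and 1.07 ± 0.28, adjusted p = 0.0632 and 0.0663). The log2 ratio of Bmpr2 at 24 h, −0.75, lay between those of the other times, and that of Tgfbr1 was −0.50.

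**Figure D4:**
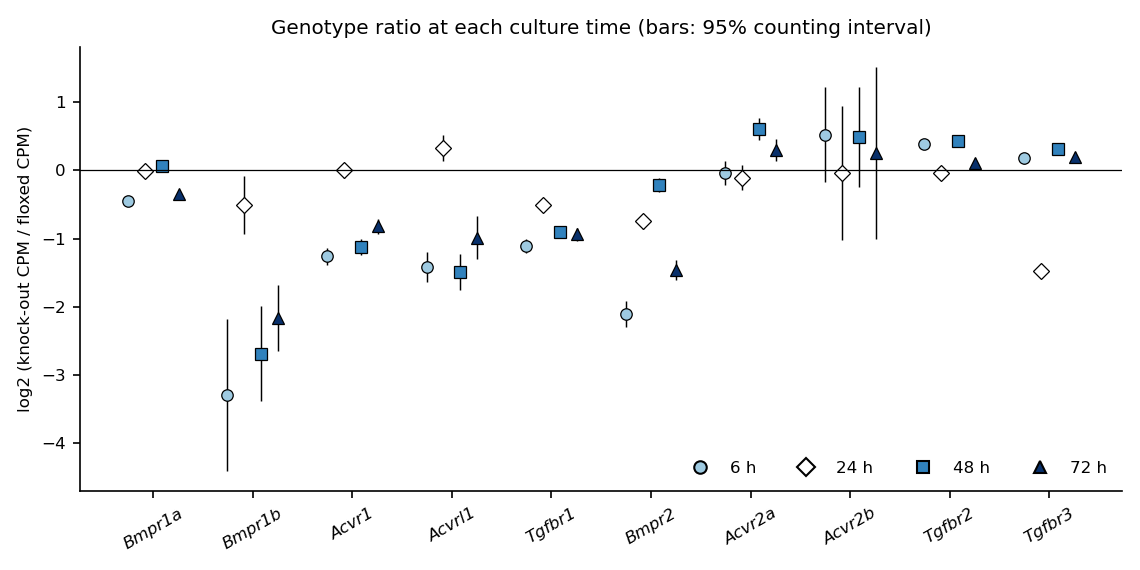
Log2 ratio of the level in iBmp2 ko/ko to that in iBmp2 fx/fx for each receptor at 6, 24, 48 and 72 h, with 1 library per genotype and time and 95% counting intervals as bars. Open diamonds mark 24 h. The ratios of Acvr1, Acvrl1, Tgfbr1 and Bmpr1b lie below 0 at 6, 48 and 72 h, and Tgfbr3 lies below 0 at 24 h alone.

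The change with culture time was tested as a slope on the log2 of hours, common to both lines, over the 6 libraries. Tgfbr3 and Bmpr1b had the steepest rise and Acvrl1 had the steepest fall among receptors with an unadjusted p under 0.05. By adjusted p, edgeR called 0 of 10 receptors and 0 of all 13121 genes. At an unadjusted p under 0.05 it gave 5 receptors, Bmpr1b, Acvr1, Tgfbr1 and Tgfbr3 with rising slopes and Acvrl1 with a falling slope, against 21.1% of all genes. DESeq2 called 2 by adjusted p, Bmpr1b and Tgfbr3, against 7.98% of all genes. The slope of Tgfbr3 was 0.33 ± 0.06 per doubling of the hours (adjusted p = 0.169 in edgeR and 0.00036 in DESeq2). Its level at 72 h was 2.03 times that at 6 h in iBmp2 fx/fx and 2.07 times in iBmp2 ko/ko. The slope of Bmpr1b was 0.51 ± 0.14 (adjusted p = 0.188 in edgeR and 0.0243 in DESeq2), with 3.17 and 6.92 times the 6 h level at 72 h in the respective lines. Acvrl1 had a slope of −0.22 ± 0.07 (adjusted p = 0.199 in edgeR), and its level at 6 h was 2.06 and 1.53 times that at 72 h. Acvr1 and Tgfbr1 had slopes of 0.14 ± 0.06 and 0.16 ± 0.06. For Bmpr2 the slope was 0.31 ± 0.16 (adjusted p = 0.284 in edgeR), for Acvr2b it was −0.26 ± 0.16 and for Acvr2a 0.12 ± 0.06. Bmpr1a and Tgfbr2 had slopes of 0.03 ± 0.05 and −0.01 ± 0.06. A difference of slope between the lines was called for 0 of the 10 receptors by adjusted p, at an unadjusted p under 0.05 and in DESeq2, and 0.480% of all genes had an unadjusted p under 0.05 for it.

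Levels of different receptors were compared per kilobase of exon, as CPM divided by the exon length in GENCODE M1. In the iBmp2 fx/fx cells Bmpr1a was the most abundant receptor at 27.1 ± 1.80 CPM per kilobase (SD, n = 3). Tgfbr3 (17.9 ± 6.78), Tgfbr1 (15.4 ± 3.33), Bmpr2 (13.7 ± 2.72), Acvr1 (12.8 ± 1.90) and Tgfbr2 (12.2 ± 0.904) followed, and neighbours in this order overlapped. Acvrl1 at 3.27 ± 1.15 and Acvr2a at 3.03 ± 0.442 were lower than these and overlapped each other. Bmpr1b at 0.752 ± 0.420 and Acvr2b at 0.383 ± 0.167 were the least abundant and overlapped as well. Over 6, 48 and 72 h the ranges of Bmpr1a and Tgfbr3, of Tgfbr2 and Acvrl1, and of Acvr2a and Bmpr1b did not overlap. At 24 h, however, Tgfbr3 and Bmpr1a were both at 28.5 CPM per kilobase, so that Tgfbr3 lay within the range of Bmpr1a. In the iBmp2 ko/ko cells Bmpr1a at 23.1 ± 3.18 and Tgfbr3 at 21.2 ± 8.71 had the highest means, and Tgfbr2 at 15.3 ± 2.66 came next, ahead of Tgfbr1 at 7.90 ± 2.24, Bmpr2 at 7.02 ± 5.37 and Acvr1 at 6.25 ± 1.93. Acvr2a, at 3.75 ± 0.911, was ahead of Acvrl1 at 1.30 ± 0.321, and Bmpr1b, at 0.137 ± 0.119, came last, after Acvr2b at 0.531 ± 0.264. The order of these means did not hold at every single time. Tgfbr3 was above Bmpr1a at 48 h (28.3 and 26.4) and at 72 h (23.7 and 22.7), and at 6 h, with 11.5, it was below Tgfbr2 with 15.4. Bmpr2 was above Tgfbr1 at 48 h (12.9 and 10.1), and at 6 h, with 2.46, it was below Acvr1 (4.58) and Acvr2a (2.70). At 72 h Acvr1 was above Tgfbr1 (8.36 and 8.07), and Bmpr1b was above Acvr2b (0.269 and 0.229). The exon models of Bmpr2 and Acvr2b, with 3507 and 1753 bases, were the shortest of the 10. Their place in the order depends on these lengths, as do the shares of the type II receptors given below. Whether the deposited counts rest on the same exon models was not tested.

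In the make-up of the type I receptor mRNA, only the share of Bmpr1a separated the lines over 6, 48 and 72 h. The summed level of the 5 type I receptors and Acvr1b, the activin type I receptor, was 76.1 ± 2.72 CPM per kilobase in iBmp2 fx/fx and 49.7 ± 9.18 in iBmp2 ko/ko (SD, n = 3 each), and the ranges did not overlap. Bmpr1a made up 37.3, 32.3 and 37.5% of it in iBmp2 fx/fx at 6, 48 and 72 h. In the iBmp2 ko/ko cells its share was 49.8, 45.1 and 45.0%, above each of the former, and it was 39.2% in the library labelled 24 h. The share of Tgfbr1 was 20.2 ± 3.70% in iBmp2 fx/fx and 15.7 ± 1.67% in iBmp2 ko/ko, and that of Acvr1 was 16.8 ± 2.14% and 12.6 ± 3.50%. Bmpr1b made up 0.981 ± 0.535% and 0.269 ± 0.232%, Acvrl1 4.33 ± 1.67% and 2.75 ± 1.22%, and Acvr1b 22.0 ± 2.84% and 22.0 ± 3.25%. Apart from Bmpr1a, the ranges of all these shares overlapped between the lines. These shares are descriptions and were not tested. Among the 4 type II receptors, Bmpr2 made up 41.4, 47.6 and 50.3% of the summed level in iBmp2 fx/fx at 6, 48 and 72 h and 11.6, 36.3 and 24.9% in iBmp2 ko/ko. Tgfbr2 made up 45.8, 42.1 and 37.6% in the former and 72.3, 50.1 and 55.1% in the latter. Over these times the shares of the lines did not overlap for either receptor, while the summed level of the type II receptors did, at 29.4 ± 3.26 and 26.6 ± 7.91 CPM per kilobase. At 24 h Bmpr2 made up 55.6% in iBmp2 fx/fx and 43.7% in iBmp2 ko/ko as labelled, and Tgfbr2 made up 33.9 and 43.3%, so that the latter library lay within the iBmp2 fx/fx ranges for both.

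**Figure D5:**
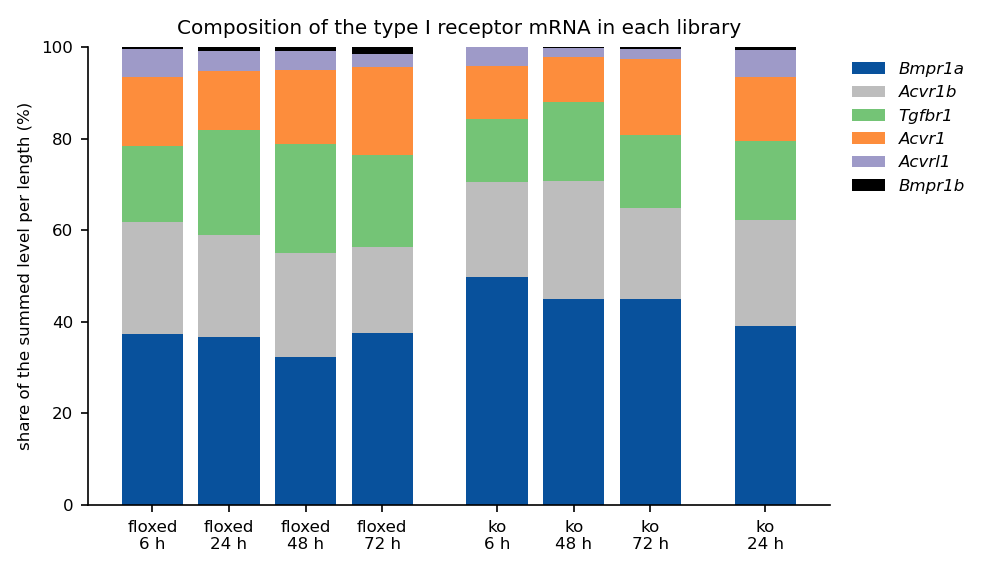
Share (%) of each type I receptor in their summed level per kilobase of exon, in each library, with the library labelled iBmp2 ko/ko at 24 h set apart on the right. Bmpr1a takes 32.3 to 37.5% in iBmp2 fx/fx at 6, 48 and 72 h and 45.0 to 49.8% in iBmp2 ko/ko at those times.

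Reads can be lost or shared where a gene has a near copy. Of the windows of 50 bases in the exons, the labelled read length, all were unique in mm9 for 7 receptors, and 99.5, 99.2 and 98.5% were unique for Bmpr2, Tgfbr1 and Tgfbr2. Only exact matches of windows within single exons were counted. Copies with mismatches and reads across exon junctions were thus not examined. Reads with several positions were set aside before counting and made up 41.3 to 49.6% of the alignments in the libraries.

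For the 3 receptors with the largest genotype difference in the fit without a block (with the block Bmpr2 came ahead of Acvr1), the genes with the most similar profile over the 8 libraries were found by the root mean square difference of log2 CPM after centring, among 13120 other genes. Bmpr1b was nearest to Ptgs2, the inducible cyclooxygenase (0.240), to Id1, a BMP target (0.331), and to Slco1a5 (0.358), where the median over all genes was 1.39. Acvrl1 was nearest to Arhgef5 (0.172), Msi1 (0.178) and Ddn (0.188), with a median of 0.826. Acvr1 was nearest to Spry2, an inhibitor of receptor tyrosine kinase signalling (0.104), to Klhl29 (0.108) and to Slc25a32 (0.122), with a median of 0.615. These are descriptions over 8 libraries of which the closest pair is nearly alike.

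The other genes of the pathway, 80 in 10 lists, were counted in the fit without a block, in which 61 passed the count filter. By adjusted p, 6 of them were called, against 2.22% of all genes. Of the other receptors, Acvr1b was the most read and was at −0.58 on the log2 scale (adjusted p = 0.386 in edgeR, 0.0417 with the block), and 0 of 2 tested were called. Among 8 co-receptors and decoys, 1 fell and 1 rose. Rgma, a BMP co-receptor, rose by 1.51 (adjusted p = 0.0243 in edgeR), and Vasn, which binds TGF-β outside the cell, fell by 1.07 on the log2 scale (adjusted p = 0.0278) and is named because its count was seen. Bambi, a receptor without a kinase, and Nrp1, a TGF-β co-receptor, had log2 fold changes of 1.65 and −1.12 and an unadjusted p under 0.05 in the fit without a block, and Neo1, the most read, was at −0.45. Of 21 regulators of the receptors, 1 was called, Smad6, an inhibitor of type I BMP receptors, which fell by 2.84 (adjusted p = 0.0065). Smad7, which inhibits Tgfbr1, was at −1.89 (adjusted p = 0.0621), and the phosphatase gene Ppp1ca, the most read, had 0.49.

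Of 6 Smads that the receptors phosphorylate or that join them, 1 was called, Smad9, a substrate of BMP receptors, at −3.45 (adjusted p = 0.0053), while Smad5, the most read, was at −0.16. None of the 5 genes of the kinase branch was called, and Map3k7, the kinase TAK1 and the most read of them, was at −0.08. Of the ligands, 3 of 13 BMP ligands, 5 of 10 ligands of the activin group and 3 TGF-β ligands passed the filter, and 0 were called by adjusted p in edgeR. At an unadjusted p under 0.05, Inha, the inhibin α subunit, was at 1.03 (adjusted p = 0.219 in edgeR), and the most read ligands Bmp4, Gdf11 and Tgfb1 were at −0.47, −0.24 and −0.34. All 6 BMP target genes were lower, with a median of −2.52 against 0.03 over all genes, and 2 were called, Id4 at −3.55 (adjusted p = 0.0213) and Smad6. Id2 and Id3, the latter the most read, were at −3.05 and −2.20 (adjusted p = 0.0552 and 0.0648 in edgeR). Of 5 TGF-β target genes, Skil, a Smad co-repressor, was called at −1.66 (adjusted p = 0.0294), and Tgfbi, the most read, was at −0.82.

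The block changed many of these calls. With culture time as the block, edgeR called 24 of the 61 pathway genes by adjusted p, against 22.7% of all genes. All 6 BMP target genes were called lower, among them Id2 (adjusted p = 0.0012) and Id3 (adjusted p = 0.0034), and 3 of 5 TGF-β target genes, among them Tgfbi (adjusted p = 0.0031). Of the co-receptors and decoys, 3 were called lower and 2 higher, with Nrp1 (adjusted p = 0.00083) and Neo1 (0.0334) among the former and Bambi (0.0079) among the latter, and Acvr1b was called lower (0.0417). Of the receptor regulators, 2 were called lower, Smad6 and Smad7 (adjusted p = 0.0018), and 3 higher, with Ppp1ca (0.0267) among them. The block called 2 Smads lower and 1 higher, and 1 gene of the kinase branch lower. Among the ligands, Inha was called higher (adjusted p = 0.0111) and Tgfb1 lower (0.0406).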

How the data were processed

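Gene counts per library, 8 libraries in all, were used as deposited. Per the labels and the study's methods, the authors aligned the reads to mm9 with TopHat2 2.0.8b and counted them with HTSeq, without normalization. The labels describe single reads, the methods paired reads. The 5 HTSeq counters and the lncRNA tables were not used. Symbols were matched to GENCODE M1 on mm9 (94.8%), and upstream sequences came from RefSeq on GRCm38.p6. The members and lists were chosen with earlier results of these data known. Tests ran in R 4.3.3 with edgeR 4.0.16 (TMM, its count filter, quasi-likelihood, Benjamini-Hochberg over all genes). The looser criterion, which adds a log2 fold change above 1 to an unadjusted p under 0.05, follows the study's methods. CPM used TMM factors over 8 libraries. Named were all members, Bmp2, for each list the up to 3 called genes with the largest change and the most read gene, and 3 similar genes for 3 members.

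Culture time was used as the replicate block, because the deviations of libraries of the same time from their genotype means correlated at 0.534 to 0.839, against −0.694 to 0.168 for different times. Alternatives were 7 and 8 libraries, each library left out, DESeq2 1.42.0, limma 3.58.1 (log2 of CPM plus 0.5, and of CPM per kilobase plus 0.1), no count filter, at least 10 counts in every library, library sizes without TMM factors, and hours without logarithm. The scripts were tested on simulated data. Python 3.11.15 with pandas 2.3.3 and matplotlib 3.10.9 made summaries and figures.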

Additional observations from a re-analysis of the deposited data

Results flagged for a closer look

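The genotype difference of Acvrl1 at 24 h departed from that of the other times by 1.64 on the log2 scale (SE 0.34), because the library labelled iBmp2 ko/ko at 24 h had 18.4 CPM where the other iBmp2 ko/ko libraries had 4.65 to 7.12 CPM. That of Tgfbr3 departed by −1.70 (SE 0.22), because the same library had 66.9 CPM where the iBmp2 fx/fx library of 24 h had 186 CPM. Both rest on that single library and on a term added after its values were seen, with the spread taken from the other times. The library was nearly alike to iBmp2 fx/fx at 6 h, in which Acvrl1 had 19.1 CPM and Tgfbr3 66.4 CPM. Among the 4 iBmp2 fx/fx libraries, Tgfbr2 at 48 h (107 CPM) stood apart from the other 3 (93.9 to 94.9 CPM), and this gap made up 0.922 of the whole range. Of 20 sets of 4 libraries examined in this way, about 1 is marked by chance.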

How the results depend on the processing

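No receptor was called by adjusted p in the fit without a block. The count was 1 with 7 libraries (the library labelled iBmp2 ko/ko at 24 h left out), which called Acvrl1, 0 with all 8, 4 in DESeq2, and 0 to 1 with each library left out (0.0676 to 2.86% of all genes), the 1 being Acvr1 without iBmp2 ko/ko at 72 h. With culture time as the replicate block it was 5 over 6 and over 7 libraries, 0 over all 8, and 4 to 5 with each library left out (11.9 to 19.5% of all genes), which loses the pair of that time. Bmpr2 was the receptor lost, without either library of 6 h or iBmp2 ko/ko at 72 h. By fold change and unadjusted p, 3 receptors (7.35% of all genes) became 1 over 8 libraries (3.55%) and 2 to 5 with the block and each library left out (9.69 to 11.0%). The time trend called 0, and 2 in DESeq2. Of the other pathway genes, 6 by adjusted p became 0 over 8 libraries, 24 with the block, 10 with 7 libraries and 12 in DESeq2, and 13 by fold change became 3 over 8 libraries.

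Tgfbr3 turned for genotype, at −0.13 over 8 libraries, −0.16 with the block over 8, and −0.030 to 0.56 with each library left out. The slopes of Bmpr1a (−0.015 to 0.089 with each library left out) and of Tgfbr2 (−0.028 to 0.036, and 0.0025 over 8 libraries) lay near 0. The cause of these changes was not tested. With at least 10 counts in every library, Bmpr1b, with 7 reads in 1 library, gave no value. The fewest reads fell on Acvr2b and Bmpr1b, with 10 to 38 and 7 to 214 reads per library, and the part of counting error in their spread was not tested.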
